A study of Mus musculus with 6 samples.

Results

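The genes described here are TGF-beta pathway genes, measured in arthritic synovial fibroblasts (SFs). They are the ligands Tgfb1, Tgfb2, Tgfb3 and Inhba, the receptors Tgfbr1, Tgfbr2 and Tgfbr3, Ltbp1 and Ltbp2 of the latent TGF-beta binding protein family, and the target gene Ctgf. They were taken by gene name, not by a measured value, and make up 10 of the 49548 genes of the deposited table. Earlier results of these data were known when they were chosen. SFs, the connective tissue cells of the joint lining, came from the ankle joints of CBA C57BL/6J mice that carry a human TNF transgene (hTNFtg) and develop polyarthritis, and were cultured after removal of CD45+ cells. The mice were 8 weeks old. The 3 untreated libraries were made from hTNFtg SFs without drug, and the 3 amisulpride libraries from hTNFtg SFs given 500 μM amisulpride, a drug for psychosis known as a dopamine receptor blocker, for 48 hours. All 6 libraries therefore carry the transgene, and no cells of normal mice enter the comparison. The comparison asks what the drug does to the expression profile of disease-activated SFs. The methods of the study mention vehicle where the sample labels say untreated, and the drug was dissolved in DMSO, so a part of the solvent in any difference cannot be told apart from that of the drug. The study describes its replicates as biological, and whether cells of several animals were pooled was not given in the sources used here.

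TGF-beta ligands are secreted in a latent form, held by their own propeptide and tied to the extracellular matrix by latent TGF-beta binding proteins until integrins, proteases or thrombospondin release them. Free ligand binds the type II receptor, which phosphorylates the type I receptor, and this in turn phosphorylates SMAD2 and SMAD3, which enter the nucleus with SMAD4. In fibroblasts the pathway is known for driving matrix synthesis and the contractile, myofibroblast-like state, and activins, dimers of inhibin beta chains such as the one encoded by Inhba, signal to the same SMADs through their own receptors.

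Transcripts were measured by 3′ mRNA sequencing, which reads near the end of each transcript, so that values do not rise with transcript length and a level stands for transcript ends. Values are normalised counts, and a change is the difference of log2(normalised count + 1) between amisulpride and untreated libraries. The study thresholds ask for a log2 fold change of 1 or more in either direction and an unadjusted p-value below 0.05, here from limma. Of 12614 genes tested, 719 (5.7%) passed these thresholds, 339 (2.69%) higher and 380 (3.01%) lower with amisulpride, and 36 (0.285%) had an adjusted p-value under 0.05. With the replicate number as a block, since same-numbered libraries deviated together, 263 genes (2.08%) had such an adjusted p-value. Approximate depths were 3.63 to 4.71 M reads in untreated and 2.52 to 4.40 M reads in amisulpride libraries, the estimate for untreated replicate 1 being uncertain. Amisulpride replicate 3, the shallowest library, stood apart at 73.9 on the first principal component against −38.2 to 10.4 for the other 5. The 15 fibroblast markers were all detected, led by Col1a1, Col1a2 and Vim, which fits the label. Their summed levels were 46007 to 60978 in untreated and 53016 to 92739 in amisulpride libraries. Of the 15, 10 had a log2 fold change above 0 and 5 below, none past the study thresholds. Those below included Prg4 (−0.92), Lum (−1.07) and Pdpn (−0.67), each lower in 3 of 3 same-numbered pairs.

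Of the 10 genes, 9 reached 10 normalised counts in 3 or more libraries and were tested, and Tgfb1 did not. Ctgf was the only one of the 9 past the study thresholds, and none had an adjusted p-value under 0.05. At an unadjusted p-value below 0.05 the count was also 1 of 9, beside 10.9% of all genes tested, 5.11% higher and 5.77% lower. With the replicate block, too, Ctgf alone passed the study thresholds, beside 6.61% of all genes. By group, 1 tested gene (Ctgf) lay higher in every amisulpride library than in any untreated library and 1 (Ltbp1) lay lower in every one, beside 16.5% of all genes tested whose groups did not overlap, 7.8% higher and 8.66% lower. The median log2 fold change of the 9 was −0.09, against 0.00 over all genes tested, with 4 genes above 0 and 5 below. In bulk RNA, fewer cells expressing a gene and less RNA per cell cannot be told apart.

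**Figure D1:**
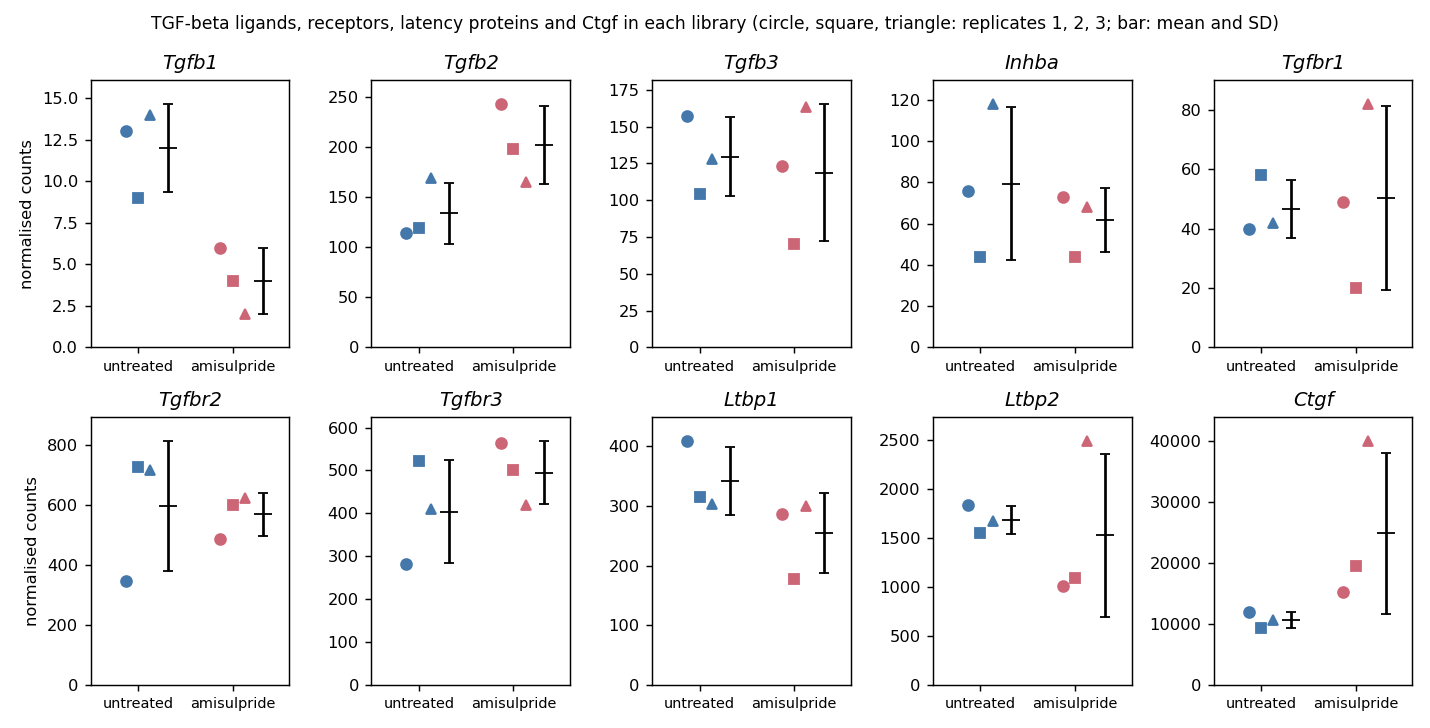
Each panel plots the normalised counts of one gene (vertical axis, from 0) in 3 untreated and 3 amisulpride libraries, with circle, square and triangle for replicates 1, 2 and 3 and a bar for the mean and SD. The 3 amisulpride points of Ctgf lie at 15297 to 40012, above untreated points of 9403 to 11976, while those of Tgfb1 lie at 2 to 6, below untreated points of 9 to 14.

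The upstream sequence of 3 genes is shown because Tgfb1 and Ltbp1 were lower in every amisulpride library while the mean of Tgfb2, the ligand nearest to the threshold, was higher. Each run is the 250 bases before a RefSeq start of the gene on GRCm38.p6, read 5′ to 3′ on the gene's strand. Tgfb1 lies at chr7:25686752-25687001 on the plus strand, Tgfb2 at chr1:186705990-186706239 on the minus strand and Ltbp1 at chr17:75005279-75005528 on the plus strand. Capitals mark matches, on either strand, to CAGAC (a SMAD-binding core), TGACGTCA (a cAMP response element), TGANTCA (AP-1) and GGAATG (TEAD).
Tgfb1: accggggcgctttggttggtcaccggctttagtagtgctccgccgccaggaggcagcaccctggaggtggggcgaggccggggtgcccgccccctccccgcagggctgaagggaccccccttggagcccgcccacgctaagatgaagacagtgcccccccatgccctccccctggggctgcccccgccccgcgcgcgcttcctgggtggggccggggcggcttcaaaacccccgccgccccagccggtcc
Tgfb2: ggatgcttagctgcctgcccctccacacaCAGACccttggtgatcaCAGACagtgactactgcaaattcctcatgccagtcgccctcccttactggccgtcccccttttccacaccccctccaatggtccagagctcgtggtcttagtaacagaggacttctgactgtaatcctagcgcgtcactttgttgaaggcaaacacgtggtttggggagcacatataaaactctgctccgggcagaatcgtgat
Ltbp1: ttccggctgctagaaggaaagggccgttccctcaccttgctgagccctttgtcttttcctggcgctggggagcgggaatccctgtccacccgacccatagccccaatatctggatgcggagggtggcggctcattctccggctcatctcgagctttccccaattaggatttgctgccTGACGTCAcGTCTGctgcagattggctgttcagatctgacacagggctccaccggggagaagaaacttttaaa
The Tgfb1 run held none of the 4 motifs. The Tgfb2 run held CAGAC at 221 and at 204 bases before the start. The Ltbp1 run held TGACGTCA beginning 73 bases before the start and, next to it, CAGAC read on the other strand beginning 64 bases before the start. A second RefSeq window of Ltbp1, at another start (chr17:75178531-75178830), held CAGAC at 2 places and no TGACGTCA. Over all 32851 RefSeq windows of 300 bases, 49.6% held CAGAC, 14.7% GGAATG, 7.81% TGANTCA and 1.79% TGACGTCA, so CAGAC alone sets no gene apart. Windows were found for 7 of the 10 genes, and Tgfb3, Tgfbr3 and Ctgf had none. The Ltbp2 window held CAGAC at 3 places, that of Tgfbr2 at 1 and that of Inhba at 0. Of the Tgfbr1 windows, 1 held it at 1 place and another at 0. Whether a motif goes with a direction of change was not tested. A match is a run of letters and not a measured binding site.

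Tgfb1 (ENSMUSG00000002603, mm10 chr7:25687002-25705077, plus strand), the ligand that immune cells release in large amounts, had the lowest normalised counts of the 3 TGF-beta ligands. Its normalised counts were 13, 9 and 14 in untreated replicates 1, 2 and 3, and 6, 4 and 2 in the amisulpride libraries. All 3 amisulpride values lay below all 3 untreated values, and each was lower than that of its same-numbered untreated library. The means were 12 ± 2.65 and 4 ± 2 (SD, n = 3), a 3-fold difference. Only 2 libraries reached a value of 10, so the gene was left out of the test. With no filter on low values the log2 fold change was −1.44 ± 0.64 (SE), with an unadjusted p-value of 0.0401 and an adjusted p-value of 0.539 (limma over 22775 genes). In approximate reads these values are 39 over the untreated and 11 over the amisulpride libraries, a rate ratio of 2.83 with an exact 95% interval of 1.42 to 6.13, which covers counting error only. Amisulpride replicates 2 and 3 stood at or below the value of 3 reads in their library (4.02 and 5.37 normalised counts), so their Tgfb1 level was near the limit of detection.

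Tgfb2 (ENSMUSG00000039239, chr1:186622792-186705989, minus strand), a ligand that needs the co-receptor betaglycan to bind well, had normalised counts of 114, 119 and 169 in untreated and 243, 198 and 165 in amisulpride libraries. The groups overlapped at 1 point, amisulpride replicate 3 falling just below untreated replicate 3, and the gene was higher in 2 of 3 same-numbered pairs. Means of 134 ± 30.4 and 202 ± 39.2 (SD, n = 3) gave a log2 fold change of 0.59 ± 0.27 (SE, 95% interval −0.00 to 1.19), with an unadjusted p-value of 0.0516 and an adjusted p-value of 0.463 (limma). Leaving out 1 library at a time gave Tgfb2 values from 0.45 to 0.77, with an unadjusted p-value of 0.0202 without amisulpride replicate 3 (0.73), of 0.0318 without untreated replicate 3 (0.77), and of 0.0918 to 0.171 in the other 4 fits (0.45 to 0.60). The difference thus sat at the threshold of the unadjusted test and did not hold after adjustment.

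Tgfb3 (ENSMUSG00000021253, chr12:86056744-86079041, minus strand), the third ligand, which binds the type II receptor without help, stood at 157, 104 and 128 in untreated and at 123, 70 and 163 in amisulpride libraries. The groups overlapped throughout, with means of 129.7 ± 26.5 and 118.7 ± 46.7 (SD, n = 3). The log2 fold change of −0.19 ± 0.34 (SE, 95% interval −0.93 to 0.55, adjusted p = 0.868, limma) was smaller than the spread between libraries, and it ranged from −0.46 without amisulpride replicate 3 to 0.15 without amisulpride replicate 2. The 3′ end of Tgfb3 overlaps Ttll5 on the opposite strand, which reached 125 normalised counts. Whether reads were counted by strand was not given in the sources used here, so reads of this pair may not be separable.

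Inhba (ENSMUSG00000041324, chr13:16011851-16027211, plus strand), which encodes the inhibin beta A chain of activin A, had 76, 44 and 118 normalised counts in untreated and 73, 44 and 68 in amisulpride libraries. No order between the groups was visible. Means of 79.3 ± 37.1 and 61.7 ± 15.5 (SD, n = 3) gave a log2 fold change of −0.28 ± 0.38 (SE, adjusted p = 0.829, limma), and 0.06 without untreated replicate 3. The GENCODE M21 annotation of the same build ends Inhba 4410 bases further downstream than the deposited coordinates, and a 3′ method would miss reads there, which was not tested.

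The makeup of the 3 TGF-beta ligand transcripts was examined within each library. Their summed normalised counts were 284, 232 and 311 in untreated and 372, 272 and 330 in amisulpride libraries, and these ranges overlap. Tgfb2 made up 40.1%, 51.3% and 54.3% of the sum in untreated libraries, and 65.3%, 72.8% and 50% in amisulpride libraries. Tgfb3 made up 55.3%, 44.8% and 41.2%, and then 33.1%, 25.7% and 49.4%. In amisulpride replicates 1 and 2 the Tgfb2 share lay above, and the Tgfb3 share below, the untreated range, but amisulpride replicate 3 lay inside that range for both genes. The share of Tgfb1 was 4.58%, 3.88% and 4.50% in untreated and 1.61%, 1.47% and 0.606% in amisulpride libraries, which do not overlap. The amisulpride shares of Tgfb1 rest on approximately 7, 3 and 1 reads. Its normalised counts already lay apart between the groups, so its share is no separate result. These shares compare libraries, since how well the kit captures each transcript end is unknown, and with 3 libraries a group an exact permutation test cannot go below 0.1, so none was made.

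**Figure D2:**
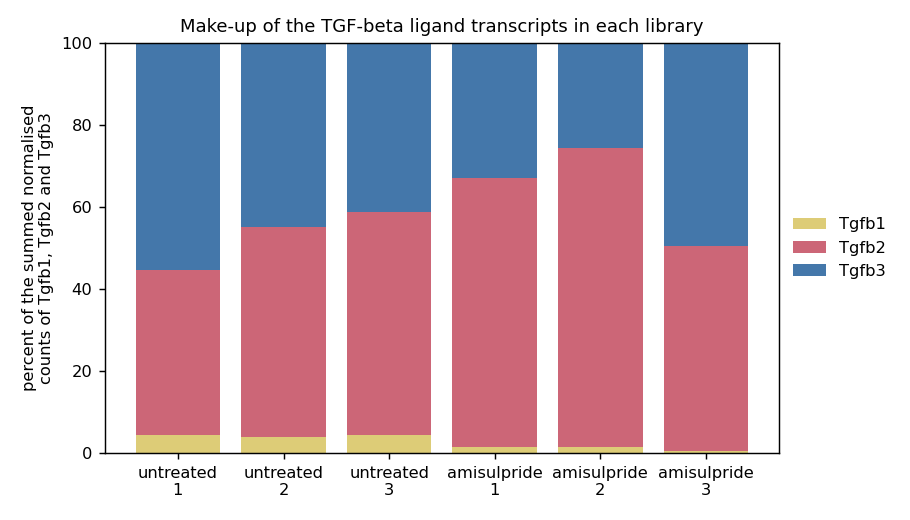
Stacked bars give the percent of the summed normalised counts of Tgfb1, Tgfb2 and Tgfb3 (vertical axis, 0 to 100) that each ligand takes in each of the 6 libraries. The Tgfb2 share is 65.3% and 72.8% in amisulpride replicates 1 and 2 and 50% in replicate 3, against 40.1% to 54.3% in untreated libraries. The Tgfb1 share is below 2% in all 3 amisulpride libraries, from approximately 7, 3 and 1 reads.

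The receptors did not differ beyond their spread. Tgfbr2 (ENSMUSG00000032440, chr9:116084293-116175360, minus strand), the type II receptor kinase that binds the ligand first, had the highest mean of the 3, with 345, 724 and 714 normalised counts in untreated and 486, 597 and 621 in amisulpride libraries. The amisulpride values lay inside the untreated range, and means of 594.3 ± 216 and 568 ± 72 (SD, n = 3) gave a log2 fold change of 0.00 ± 0.31 (SE, 95% interval −0.67 to 0.68, adjusted p = 0.998, limma). The estimate lay so near 0 that its sign followed the processing, and changes of up to 0.67 in either direction lie within its interval.

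Tgfbr1 (ENSMUSG00000007613, chr4:47353222-47414931, plus strand), the type I kinase that phosphorylates SMAD2 and SMAD3, had 40, 58 and 42 normalised counts in untreated and 49, 20 and 82 in amisulpride libraries. The amisulpride libraries held both the lowest and the highest value. The mean was 46.7 ± 9.87 in untreated and 50.3 ± 31 (SD, n = 3) in amisulpride libraries, while the log2 fold change, which averages on the log scale, was −0.09 ± 0.46 (SE, 95% interval −1.10 to 0.93, adjusted p = 0.962, limma), so mean and fold change differ in sign. Leaving out 1 library at a time moved the Tgfbr1 value between −0.54 and 0.45, the highest without amisulpride replicate 2.

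Tgfbr3 (ENSMUSG00000029287, chr5:107106570-107289629, minus strand), which encodes betaglycan, the co-receptor that presents TGF-beta 2, had 281, 521 and 409 normalised counts in untreated and 564, 502 and 419 in amisulpride libraries. The highest value was treated and the lowest untreated, with the other values mixed. Means of 403.7 ± 120 and 495 ± 72.8 (SD, n = 3) gave a log2 fold change of 0.33 ± 0.28 (SE, 95% interval −0.28 to 0.94, adjusted p = 0.716, limma), and Tgfbr3 moved to 0.09 without untreated replicate 1 and to 0.53 when untreated replicate 2 was dropped. The ratio of Tgfbr3 to Tgfbr2 was 0.815, 0.720 and 0.573 in untreated and 1.16, 0.841 and 0.675 in amisulpride libraries, higher in 3 of 3 same-numbered pairs but overlapping between the groups.

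Of the latency proteins, Ltbp1 (ENSMUSG00000001870, chr17:75005568-75392512, plus strand), which binds latent TGF-beta and fixes it in the matrix, had 408, 314 and 303 normalised counts in untreated and 286, 178 and 299 in amisulpride libraries. Every amisulpride value lay below every untreated value, although amisulpride replicate 3 was within 4 normalised counts of untreated replicate 3. Means of 341.7 ± 57.7 and 254.3 ± 66.4 (SD, n = 3) gave a log2 fold change of −0.45 ± 0.28 (SE, 95% interval −1.05 to 0.16), which missed the threshold with an unadjusted p-value of 0.131 and an adjusted p-value of 0.598 (limma). The Ltbp1 value was −0.58 with an unadjusted p-value of 0.0553 when amisulpride replicate 3 was dropped, and −0.21 without amisulpride replicate 2. Lower groups without overlap were found for 8.66% of all genes tested.

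Ltbp2 (ENSMUSG00000002020, chr12:84783212-84876532, minus strand) encodes a matrix protein of the same family that does not bind latent TGF-beta. Its normalised counts were higher than those of Ltbp1, with 1836, 1552 and 1669 in untreated and 1006, 1090 and 2484 in amisulpride libraries. The amisulpride libraries fell on both sides of the narrow untreated range, replicates 1 and 2 below and replicate 3 above. Means of 1686 ± 143 and 1527 ± 830 (SD, n = 3) gave a log2 fold change of −0.27 ± 0.34 (SE, 95% interval −1.0 to 0.47, adjusted p = 0.811, limma). The Ltbp2 value was −0.68 without amisulpride replicate 3 (unadjusted p = 0.0115, limma), −0.03 without amisulpride replicate 1 and −0.09 when amisulpride replicate 2 was dropped. The ratio of Ltbp2 to Ltbp1 was 4.50, 4.94 and 5.51 in untreated and 3.52, 6.12 and 8.31 in amisulpride libraries, with no separation of the groups.

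**Figure D3:**
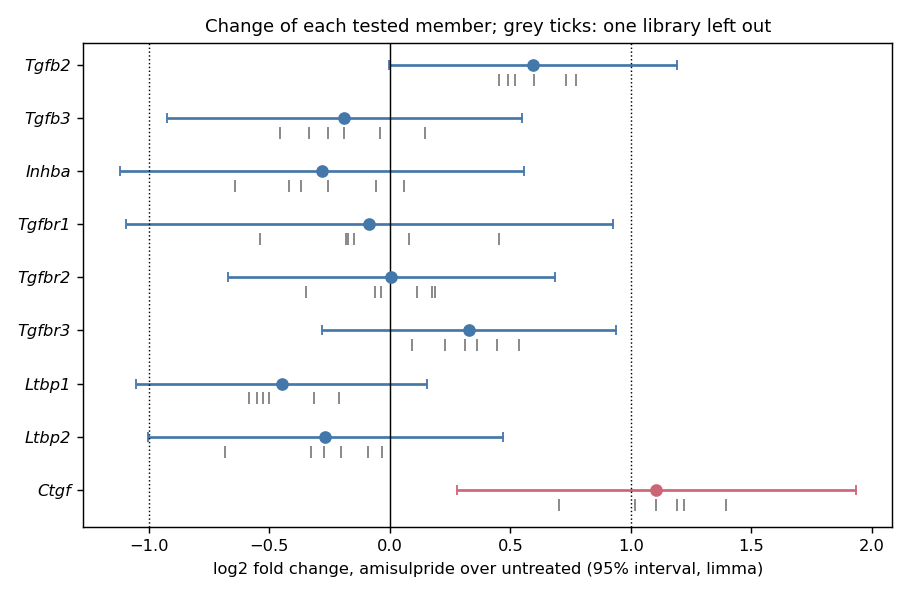
Points give the log2 fold change of amisulpride over untreated (horizontal axis) of the 9 genes tested, with 95% intervals from limma over 3 libraries a group and grey ticks for fits without 1 library. Ctgf, in red, is the only gene past the study thresholds, and its interval of 0.28 to 1.93 does not reach 0, while the intervals of the other 8 do.

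Ctgf (ENSMUSG00000019997, chr10:24595442-24598683, plus strand) encodes CCN2, a secreted matrix-associated protein that TGF-beta and the YAP coactivator both induce in fibroblasts. Its normalised counts were 11976, 9403 and 10616 in untreated and 15297, 19468 and 40012 in amisulpride libraries. The groups did not overlap, and the untreated values were close together while amisulpride replicate 3 stood at 2.06 times the next highest library. Means of 10665 ± 1287 and 24926 ± 13230 (SD, n = 3) differed 2.34-fold. The log2 fold change was 1.11 ± 0.38 (SE, 95% interval 0.28 to 1.93), with an unadjusted p-value of 0.0132 and an adjusted p-value of 0.281 (limma), so Ctgf passed the study thresholds and not the adjusted test. The gene was higher in 3 of 3 same-numbered pairs, by 0.35, 1.05 and 1.91 on the log2 scale, and with the replicate block its adjusted p-value was 0.128. Without amisulpride replicate 3 the Ctgf value was 0.70 with an unadjusted p-value of 0.0316, under the fold threshold.

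Ctgf was among the genes with the highest normalised counts. It ranked 19, 32 and 28 among all genes in the untreated libraries, and 10, 7 and 1 in the amisulpride libraries, where it took 0.388%, 0.495% and 0.888% of the library against 0.301%, 0.245% and 0.270% untreated. Tab2, a kinase adaptor, and Itgb1, the beta chain shared by matrix-binding integrins, also stood out in amisulpride replicate 3. Tab2 had 524, 504 and 602 normalised counts in untreated and 577, 431 and 2750 in amisulpride libraries, and Itgb1 in that library stood at 2.09 times the next highest. Among the 96 genes tested of this group and the pathway lists below, 15 (15.6%) were over 1.5 times higher in amisulpride replicate 3 than in every other library, beside 9.12% of all genes tested. The normalised counts of that library summed to 4504242, against 3832980 to 3982723 in the others. The part of that library's depth and composition in the Ctgf difference was not tested.

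Of the other CCN and YAP-linked genes, most were not called. Of 13 genes listed, 12 were tested, with a median log2 fold change of −0.15, and 1 (8.33%) passed the study thresholds, beside 5.7% of all genes tested. This was Nov, which encodes CCN3, a family member often opposed to CCN2 in matrix synthesis. Nov had 147, 194 and 65 normalised counts in untreated and 543, 589 and 378 in amisulpride libraries, which do not overlap. Its log2 fold change was 2.0 ± 0.38 (SE, adjusted p = 0.0608, limma), and the adjusted p-value was 0.00102 with the replicate block. Cyr61, which encodes CCN1 and is, like Ctgf, a usual readout of YAP, had 5014, 3645 and 3841 normalised counts in untreated and 5766, 5933 and 3434 in amisulpride libraries, a log2 fold change of 0.25 ± 0.30 (SE, adjusted p = 0.802, limma). The ratio of Ctgf to Cyr61 was 2.39, 2.58 and 2.76 in untreated and 2.65, 3.28 and 11.7 in amisulpride libraries, so that only replicate 3 set it far apart. Wisp2 (CCN5) had a log2 fold change of −0.66 ± 0.29 (SE) and Yap1 of −0.40 ± 0.25 (SE), with adjusted p-values of 0.431 and 0.601 (limma).

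In the list of TGF-beta targets of fibroblasts all 30 genes were tested, and 5 passed the study thresholds, all of them lower with amisulpride, beside 3.01% of all genes tested. The list median was −0.21 against 0.00 over all genes, with 12 genes above and 18 below 0, and 8 genes were lower in every amisulpride library without overlap, beside 8.66% of all genes. The genes that fell at the study thresholds are those of the contractile apparatus, Cnn1, Tagln and Acta2, together with Il11, a cytokine, and Tgfbi, a matrix adhesion protein.

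Cnn1 (calponin, which binds actin in contractile cells) had 240, 117 and 231 normalised counts in untreated and 23, 1 and 27 in amisulpride libraries. The groups were far apart, and amisulpride replicate 2 was under the value of 3 reads. The log2 fold change was −4.09 ± 0.81 (SE, adjusted p = 0.0652, limma), and the adjusted p-value was 0.00021 with the replicate block. Leaving out 1 library at a time gave Cnn1 values from −4.76 to −2.86, and a pseudocount of 5 gave −3.45. The gene stayed past the study thresholds in each, but the size of the fold depends on values near the limit of detection.

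Tagln (transgelin, another actin-binding protein) had 1562, 1010 and 1708 normalised counts in untreated and 398, 226 and 684 in amisulpride libraries. No value overlapped, and the log2 fold change was −1.81 ± 0.38 (SE, adjusted p = 0.0761, limma), with an adjusted p-value of 0.00135 with the replicate block. Acta2 (smooth muscle alpha-actin, the usual mark of myofibroblasts) had 6413, 5030 and 9384 normalised counts in untreated and 2714, 1253 and 4586 in amisulpride libraries. Its log2 fold change was −1.43 ± 0.43 (SE, adjusted p = 0.225, limma), with an adjusted p-value of 0.0142 with the replicate block and a log2 fold change of −0.93 without amisulpride replicate 2, which is under the fold threshold.

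Il11 fell from 27, 25 and 38 normalised counts to 6, 3 and 16, a log2 fold change of −1.97 ± 0.57 (SE, adjusted p = 0.208, limma), with no overlap and amisulpride replicate 2 under the value of 3 reads. Tgfbi had 285, 173 and 156 normalised counts in untreated and 99, 142 and 55 in amisulpride libraries, a log2 fold change of −1.10 ± 0.37 (SE, adjusted p = 0.277, limma). The Tgfbi value was −0.83 without untreated replicate 1, and it was −0.73 on leaving out amisulpride replicate 3, both under the fold threshold. Snai1, a transcription factor, and Sphk1, which makes sphingosine 1-phosphate, missed the fold threshold with log2 fold changes of −0.89 ± 0.25 and −0.98 ± 0.28 (SE) and adjusted p-values of 0.183 and 0.192 (limma).

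Neither the collagens named here nor Fn1 (fibronectin) were called. The log2 fold change was 0.49 for Col1a1, 0.71 for Col3a1 and 0.44 for Fn1. All 3 were highest in amisulpride replicate 3, without which Col1a1 was at 0.15, Col3a1 at 0.39 and Fn1 at 0.016. Col1a2 was instead highest in amisulpride replicate 2. Its log2 fold change was 0.71 ± 0.34 (SE, adjusted p = 0.487, limma), and 0.51 to 0.97 on leaving out 1 library at a time. Col5a1 was at −0.10. Col3a1 passed the study thresholds when amisulpride replicate 1 was dropped (1.02, unadjusted p = 0.043, limma). Ctgf and the contractile targets stood in opposite directions in the same libraries. The ratio of Ctgf to Acta2 was 1.87, 1.87 and 1.13 in untreated and 5.64, 15.5 and 8.72 in amisulpride libraries, and that of Ctgf to Tagln 7.67, 9.31 and 6.22 and then 38.4, 86.1 and 58.5. Neither ratio overlapped between the groups, which follows from Ctgf, Acta2 and Tagln each lying apart between the groups and is no separate result. Amisulpride replicate 3 was not the highest in either.

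**Figure D4:**
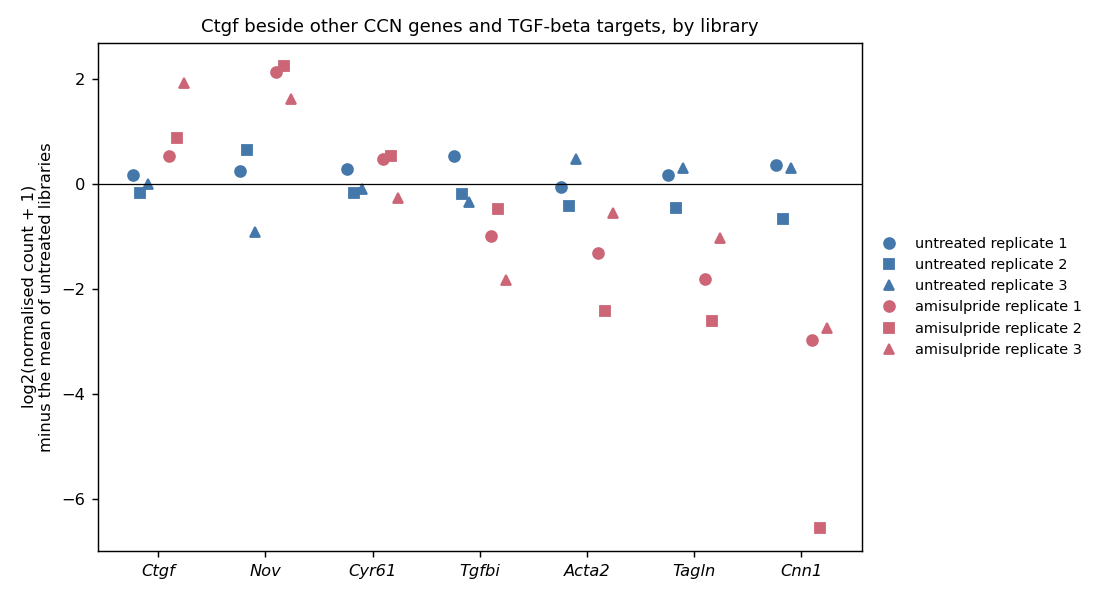
The vertical axis is log2(normalised count + 1) minus the mean of the untreated libraries, for Ctgf, 2 other CCN genes (Nov, Cyr61) and 4 TGF-beta targets, with blue for untreated, red for amisulpride and 1 symbol for each replicate number. Ctgf and Nov lie above 0 in all 3 amisulpride libraries, and Tgfbi, Acta2, Tagln and Cnn1 lie below 0 in all 3.

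Smooth muscle genes are also expressed by mural cells, so their markers were examined. The 8 mural markers summed to 254 to 400 normalised counts in untreated and 192 to 275 in amisulpride libraries, with 3 of 8 tested. Mcam, one of them, had 112, 122 and 184 normalised counts in untreated and 53, 47 and 57 in amisulpride libraries, a log2 fold change of −1.37 ± 0.29 (SE, unadjusted p = 0.000576, limma), while Notch3 was at −0.08 and Cspg4 at 0.21. Their part in the fall of Cnn1, Tagln and Acta2 was not tested.

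In the list of latency and activation 18 of 19 genes were tested, with a median of 0.05, and 1 gene was higher and 1 lower at the study thresholds, beside 2.69% and 3.01% of all genes tested. Furin, the protease that cleaves the TGF-beta propeptide, had 514, 280 and 448 normalised counts in untreated and 184, 182 and 165 in amisulpride libraries. The groups did not overlap, and the treated libraries were tightly grouped. Means of 414 ± 121 and 177 ± 10.4 (SD, n = 3) gave a log2 fold change of −1.18 ± 0.27 (SE, adjusted p = 0.109, limma), with an adjusted p-value of 0.0284 with the replicate block. Without untreated replicate 1 the Furin value came to −1.0, just short of the fold threshold.

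Tgm2, the transglutaminase that crosslinks latent complexes to the matrix, had 128, 258 and 185 normalised counts in untreated and 325, 493 and 335 in amisulpride libraries. It was higher in every amisulpride library, with a log2 fold change of 1.04 ± 0.30 (SE, adjusted p = 0.209, limma) and an adjusted p-value of 0.0429 with the replicate block. The Tgm2 value was 0.79 without untreated replicate 1, and it was 0.85 when amisulpride replicate 2 was dropped. Mmp14, a membrane protease, and Itgb3, an integrin chain, missed the fold threshold at −0.67 ± 0.27 and −0.95 ± 0.44 (SE). The other binding proteins Ltbp3 and Ltbp4 had log2 fold changes of −0.05 and 0.14.

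In the activin branch 10 of 13 genes were tested, with a median of 0.17, and 3 (30%) passed the study thresholds, beside 5.7% of all genes tested. Inhbb, which encodes the beta B chain of activin and so is the counterpart of Inhba, had 69, 33 and 46 normalised counts in untreated and 13, 7 and 5 in amisulpride libraries. The groups did not overlap, and amisulpride replicate 3 was under the value of 3 reads in its library (5.37 normalised counts), so the fold depends on values near the limit of detection. Means of 49.3 ± 18.2 and 8.33 ± 4.16 (SD, n = 3) gave a log2 fold change of −2.46 ± 0.47 (SE, adjusted p = 0.0622, limma), with an adjusted p-value of 0.00604 with the replicate block, and the gene stayed past the study thresholds without any 1 library. The difference between Inhba and Inhbb was not tested.

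Acvr1b, the type I activin receptor, had 24, 41 and 23 normalised counts in untreated and 50, 58 and 70 in amisulpride libraries, a log2 fold change of 1.03 ± 0.34 (SE, adjusted p = 0.273, limma). Fst, the secreted follistatin that traps activin, had 105, 250 and 108 normalised counts in untreated and 181, 371 and 415 in amisulpride libraries, a log2 fold change of 1.09 ± 0.40 (SE, adjusted p = 0.326, limma), with overlapping groups. Both sat close to the fold threshold and missed it on leaving out single libraries. For Acvr1b leaving out untreated replicate 1 gave 0.91, leaving out untreated replicate 3 gave 0.88 and leaving out amisulpride replicate 3 gave 0.90. For Fst the same omissions gave 0.88, 0.90 and 0.87, and that of amisulpride replicate 2 gave 0.95. Acvr2a, an activin type II receptor, and Eng (endoglin, a co-receptor) had log2 fold changes of 0.80 ± 0.41 and −0.73 ± 0.38 (SE) and were not called.

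Among SMADs and their regulators all 20 genes were tested, with a median of 0.16, and 1 (5%) passed the study thresholds, a share near the 5.7% of all genes tested. Tgif2, a repressor that binds SMADs, had 23, 22 and 23 normalised counts in untreated and 9, 5 and 18 in amisulpride libraries, a log2 fold change of −1.18 ± 0.51 (SE, adjusted p = 0.432, limma). The Tgif2 call was lost without any 1 of the 3 untreated libraries or without amisulpride replicate 1 or 2, with values of −1.20 to −0.78, and 18.1% of the words of 31 bases in the last 500 bases of its transcript also occur in Tgif2-ps2, so its count is uncertain. Smad2, Smad3 and Smad4, the transducers, had log2 fold changes of 0.00, −0.11 and −0.03, and the inhibitory Smad6 and Smad7 of 0.37 and −0.37, none called. Bambi, a pseudoreceptor that dampens the signal, had a log2 fold change of 1.25 ± 0.59 (SE, unadjusted p = 0.0574, limma) and passed the study thresholds with the replicate block (unadjusted p = 0.0293). Tgif1 was at 0.53 ± 0.31 (SE, adjusted p = 0.575, limma).

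Over the 5 lists together 87 of 92 distinct genes were tested. Of these, 12 (13.8%) passed the study thresholds, 4 higher and 8 lower, beside 5.7% of all genes tested, and the median was −0.03. None had an adjusted p-value under 0.05 (limma), while 17 had an unadjusted p-value under 0.05, beside 10.9% of all genes. With the replicate block 7 had an adjusted p-value under 0.05, beside 2.08% of all genes: Furin, Tgm2, Inhbb, Acta2, Tagln, Cnn1 and Nov. The lists were chosen with earlier results of these data known, so these shares describe the lists and are no independent evidence about the pathway.

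**Figure D5:**
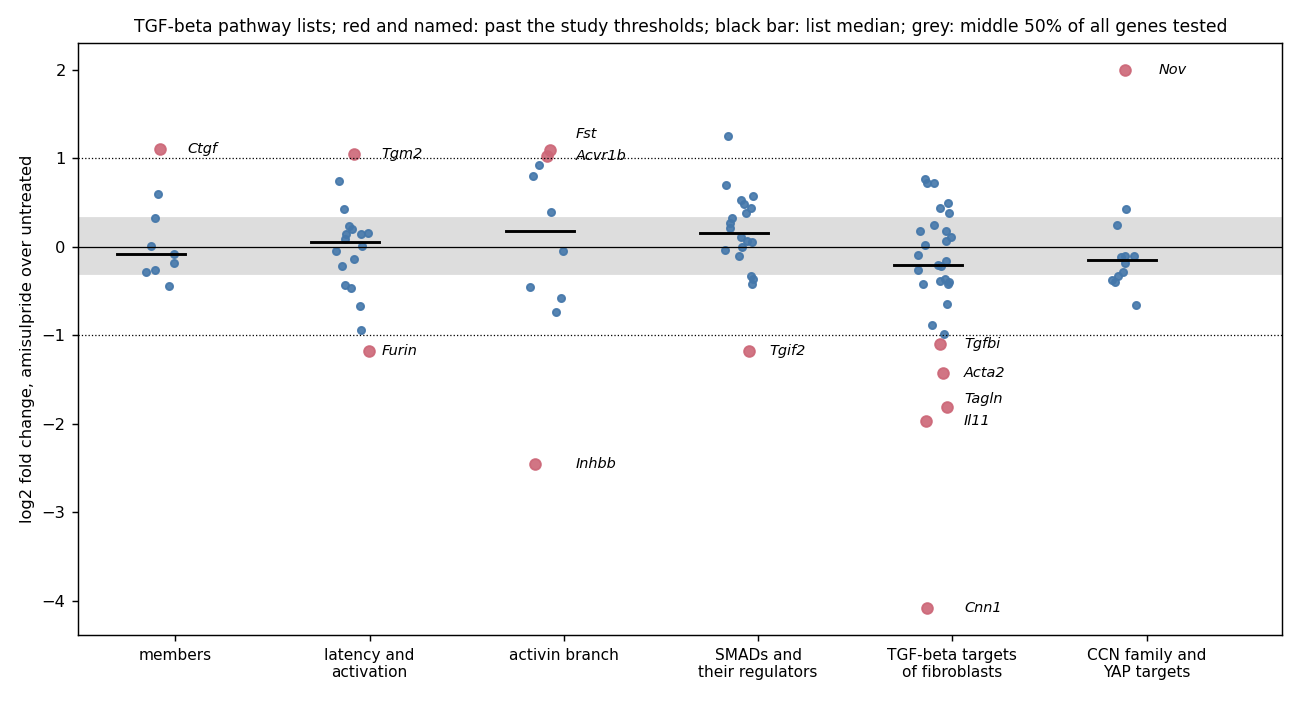
Each point is the log2 fold change of amisulpride over untreated (vertical axis) of one tested gene, by list, with genes past the study thresholds in red and named, a black bar at each list's median and a grey band for the middle 50% of all genes tested (−0.31 to 0.32). Medians lie between −0.21 and 0.17, and the named target genes of fibroblasts all lie below −1.

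Markers of other cell types were also examined. The 17 myeloid markers, 16 of them tested, summed to 2703 to 4816 normalised counts in untreated and 2597 to 4686 in amisulpride libraries, led by Lyz2, Ctss and Cd68, with Cd163 at 0 in every library. Lyz2 alone had 1394 to 3287 normalised counts. The 16 tested markers did not share a direction, with 7 above and 9 below 0. Cd14 and Csf1r were lower at the study thresholds, joined by Ptprc (−1.16) and Cx3cr1 (−1.10) with the replicate block, while C1qc had a log2 fold change of 0.95, C1qb of 0.75 and Adgre1 of 0.83, each higher in 3 of 3 same-numbered pairs. Myeloid cells are a source of Tgfb1, and the part of these markers in its lower level was not tested. The 12 endothelial markers summed to 85 to 105 and 31 to 72, led by Egfl7, Flt1 and Tek, with Cdh5, Tie1 and Cldn5 at 0 in every library. Of 9 lymphocyte markers 8 were at 0 in every library, and Trbc2 alone gave sums of 2 to 15 and 0 to 1. The 9 chondrocyte markers found summed to 266 to 296 and 250 to 564, mostly from Sox9, with Col2a1 and Hapln1 next.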

How the data were processed

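Libraries of hTNFtg SFs were made with the QuantSeq 3′ kit and read on an Ion Proton. The authors mapped reads to mm10 with TopHat2, with Bowtie2 for the rest, counted them per gene with GenomicRanges, normalised the counts and tested with DESeq, through metaseqr. The normalisation method was not given in the sources used here. Versions were not given in the sources used here. The deposited values are a score: read counts that the authors scaled per library and rounded. Deposited p-values and fold changes of the authors' own comparison, and 12 other columns per library, were not used.

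Genes that reached 10 in 3 or more of the 6 libraries were fitted with limma 3.58.1 (R 4.3.3) on log2(value + 1), with a variance trend (prior degrees of freedom 7.31), two-sided, Benjamini-Hochberg over all genes. The procedure was tested on simulated data. The value of 1 read was estimated from the gaps between low values (0.834 to 1.79). The low log-likelihood gain (26.6) leaves untreated replicate 1 uncertain. Floors of 3 reads (2.50 to 5.37 normalised counts) cover counting error only. Whether molecular identifiers were used was not given in the sources used here. The labels number the replicates and state no pairing, so the replicate block rests on a pairing inferred from these values. Deviations of same-numbered libraries from their group means correlated at 0.229, 0.24 and 0.201, others at −0.149 to −0.078. Such deviations sum to 0 within a group, so the negative values go with the positive ones and add no support. P-values rest on the spread between these libraries, each gene's variance being drawn toward the trend over all genes fitted.

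Members and lists were chosen with earlier results of these data known. Named are the members, from each pathway list up to 4 genes with the lowest p in each direction past the thresholds and 2 that miss them, and the 3 highest of each marker list. Other genes (Tgfbi, Cyr61, Tab2, Itgb1, Cd14, Csf1r, Cd163, Ptprc, Cx3cr1, C1qb, C1qc, Adgre1, Lum, Prg4, Pdpn, the collagens, Fn1, Ltbp3, Ltbp4, Ttll5 and the SMADs, and the markers listed at 0) were chosen after their values were seen. Alternatives were a pseudocount of 5, no filter, a minimum of 30, quantile and median-ratio scaling, weights per library, the replicate block and leaving out each library.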

Additional observations from a re-analysis of the deposited data

How the results depend on the processing

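The limits are 3 libraries a group, few reads for Tgfb1, and 1 deviating library, amisulpride replicate 3. Of 117 recomputed log2 fold changes of the 9 tested genes, 106 kept their direction and side of the thresholds. The difference of Tgfb1 stayed below 0 in its 8 alternatives (−1.73 to −0.93), and passed the thresholds with no filter. Those that changed sign were Tgfb3 (0.15 without amisulpride replicate 2), Inhba (0.06 without untreated replicate 3), Tgfbr1 (0.08 without untreated replicate 2, 0.45 when amisulpride replicate 2 was dropped) and Tgfbr2 (−0.047 with quantile scaling, −0.18 with weights per library, and below 0 when untreated replicate 1, amisulpride replicate 2 or amisulpride replicate 3 was dropped, at −0.35, −0.04 and −0.06). On leaving out 1 library at a time the range was −0.46 to 0.15 for Tgfb3, −0.64 to 0.057 for Inhba, −0.54 to 0.45 for Tgfbr1 and −0.35 to 0.19 for Tgfbr2. Ctgf lost its call at 0.90 with weights per library and at 0.70 without amisulpride replicate 3. Genes of the 10 past the study thresholds numbered 1, and 2 with no filter, where Tgfb1 enters, 0 with weights, and 0 to 1 on leaving out 1 library. Those with an unadjusted p-value under 0.05 numbered 1, and 2 with a minimum of 30, 3 with no filter, 2 with weights, and 1 to 3 on leaving out 1 library. Among all genes, 719 passed the thresholds, and 1313 did with no filter, 462 with a minimum of 30, and 563 to 1000 on leaving out 1 library. Adjusted p-values under 0.05 numbered 36, and 57 with a pseudocount of 5, 57 with no filter, 66 with quantile scaling, 195 with weights, 263 with the replicate block, and 0 to 120 on leaving out 1 library. The count of 0 came without untreated replicate 2 or 3, with 1083 and 911 genes below 0.05 before adjustment (limma). The count was 1 without untreated replicate 1, and dropping amisulpride replicate 1, 2 or 3 gave 17, 6 and 120. Pathway list genes past the thresholds numbered 12, with 8 to 16 on leaving out 1 library, and 13 with the replicate block. Beyond the values given in the report, the pairing changed no other call at the thresholds among the 10 genes and the lists of the pathway. Among the markers it added Lum (−1.07), Ptprc (−1.16) and Cx3cr1 (−1.10). Tgfb1 could not be fitted with a filter on low values. The cause of these shifts was not tested, other than the number of genes admitted by each filter.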
